A study of Homo sapiens with 15 samples.

Results

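Loops at the promoters of GATA2 and GATA3 were examined in LNCaP cells, an androgen-sensitive prostate cancer line, after androgen stimulation. A loop was taken where a 1 kb anchor came within 2.5 kb of where the gene's canonical transcript begins in the Gencode annotation of hg19. By this rule GATA2 had 2 loops and GATA3 had 0, of 505995 different loops in all. GATA2 lies on the minus strand at chr3:128198270-128212044 and its canonical transcript starts at position 128212044. GATA3 lies on the plus strand at chr10:8087341-8117161 and its canonical transcript starts at position 8096651.

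GATA factors are zinc finger proteins that bind the sequence from which the family takes its name. GATA2 is known as a regulator of blood stem cells and, in prostate epithelium, as a factor that opens chromatin at enhancers that respond to androgen. GATA3 is known for T cell and luminal epithelial development, above all in breast. A long-range loop brings an enhancer close to a promoter, and HiChIP reads such contacts among fragments that carry a chosen histone mark, here H3K27ac (active enhancers and promoters) and H3K4me3 (active promoters).

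The study followed contacts in cells treated with 10 nM dihydrotestosterone (DHT, the potent androgen) and collected after 30 m, 4 h, 16 h and 72 h of treatment, and in cells given ethanol vehicle (0 m), all after hormone deprivation in charcoal-stripped serum without phenol red. There were 10 H3K27ac samples, 2 for each time point, and 5 H3K4me3 samples, 1 for each. The deposited tables hold a single value for each loop, mark and time point, so that no replicate spread could be had, no test was made and all intervals are exact 95% intervals of the recovered read pairs, which cover counting error only. LNCaP is a single line, so the values speak for that line alone.

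The H3K27ac tables held 2475168 to 4308555 read pairs in different loops, and those of H3K4me3 held 2153262 to 10675614, with 4 h the deepest. Contact is the number of read pairs in a loop after the authors' scaling. The paper describes that scaling as made among time points and does not state whether the marks were scaled together. The sum over all loops moved by 0.09, 0.07, 0.25 and 0.17 (log2) at 30 m, 4 h, 16 h and 72 h for H3K27ac and by 0.02, 0.22, 0.14 and -0.13 for H3K4me3 under that scaling, and changes are read against it. Prostate luminal markers (KLK3, TMPRSS2, SLC45A3, FOXA1, HOXB13) had loops at 5 of 5 promoters and basal epithelial markers (TP63, KRT5, KRT14) at 0 of 3. Of the blood markers (PTPRC, CD3E, TAL1, GATA1) CD3E alone had loops, 5 in number. Of all 20149 coding promoters, 16340 had a loop, so that 5 of 5 luminal markers was near the background.

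The 250 bases before the starts that the results turn on are shown from the GRCh37 sequence (the build of the files), so that the looped and the unlooped promoters can be compared. Capitals mark matches to the 5 motifs searched on both strands: AGATAA, which GATA factors bind, the half-site AGAACA of the androgen response element, the full element (that half-site, any 3 bases, then its reverse complement, so that the half-site overlaps it), the forkhead motif TGTTTAC, and the letters AGGGGGC from the core of the CTCF site.
GATA2 canonical start, chr3:128212045-128212294, minus strand: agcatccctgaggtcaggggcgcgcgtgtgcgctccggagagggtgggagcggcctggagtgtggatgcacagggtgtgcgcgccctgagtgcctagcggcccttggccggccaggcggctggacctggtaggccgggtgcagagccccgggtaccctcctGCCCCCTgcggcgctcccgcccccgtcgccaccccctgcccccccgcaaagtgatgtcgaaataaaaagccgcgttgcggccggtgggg
GATA2 internal start, chr3:128207374-128207623, minus strand: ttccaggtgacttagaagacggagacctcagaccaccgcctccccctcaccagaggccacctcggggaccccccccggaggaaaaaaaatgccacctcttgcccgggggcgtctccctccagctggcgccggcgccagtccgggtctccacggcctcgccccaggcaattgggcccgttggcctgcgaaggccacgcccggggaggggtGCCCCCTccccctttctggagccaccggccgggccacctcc
GATA3 canonical start, chr10:8096401-8096650, plus strand: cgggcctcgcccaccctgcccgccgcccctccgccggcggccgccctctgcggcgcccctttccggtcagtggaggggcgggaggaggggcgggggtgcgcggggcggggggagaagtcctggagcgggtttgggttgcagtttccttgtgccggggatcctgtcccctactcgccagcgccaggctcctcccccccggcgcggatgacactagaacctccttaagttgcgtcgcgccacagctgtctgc
The internal GATA2 start lies 4.67 kb downstream of the canonical start and opens the transcript ENST00000487848. Each of the GATA2 windows held 1 CTCF core match and no other motif, and the GATA3 window held none of the motifs. The CTCF core was present in 17.8% of 20149 protein-coding promoter windows of this length, AGATAA in 6.62%, the half-site in 9.01%, TGTTTAC in 2.11% and the full androgen response element in 0%. All 3 windows were rich in G and C (71.2% to 73.6%).

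The far ends of the strongest long loops of GATA2, which are described further on, both lay in introns of EEFSEC, a gene for a selenocysteine-specific translation elongation factor. From each 1 kb far anchor the 300 bases with most motif matches are shown, so that matches in them follow from the choice of bases. Contact was counted in 5 kb bins and does not single out these bases.
Far anchor of the strongest long H3K27ac loop, chr3:128102112-128102411, plus strand: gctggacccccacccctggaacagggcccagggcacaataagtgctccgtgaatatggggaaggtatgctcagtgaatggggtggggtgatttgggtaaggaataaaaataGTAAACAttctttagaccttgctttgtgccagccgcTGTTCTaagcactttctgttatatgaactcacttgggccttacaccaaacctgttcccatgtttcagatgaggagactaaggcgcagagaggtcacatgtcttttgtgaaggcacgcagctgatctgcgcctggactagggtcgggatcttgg
Far anchor of the strongest long H3K4me3 loop, chr3:127892618-127892917, plus strand: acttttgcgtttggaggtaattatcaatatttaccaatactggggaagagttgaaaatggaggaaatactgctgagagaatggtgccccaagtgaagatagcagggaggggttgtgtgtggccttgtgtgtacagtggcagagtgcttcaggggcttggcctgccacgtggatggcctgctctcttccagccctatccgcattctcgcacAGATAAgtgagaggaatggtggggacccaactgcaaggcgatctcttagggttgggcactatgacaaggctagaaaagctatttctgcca
The first stretch held 1 forkhead match and 1 androgen half-site, and the second held 1 GATA match. Of all 210061 anchors of 1 kb, 14.5% held the forkhead motif, 55.6% the half-site and 50.1% AGATAA.

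The GATA2 canonical start had few loops for a coding promoter. It had 2 loops, as against a median of 20 among the 16340 coding promoters that had any, and 30.9% of all 20149 coding promoters had 2 or fewer. Both loops were called in the H3K27ac set and neither in the H3K4me3 set. They shared the anchor chr3:128212001-128213000, which holds the canonical start and the first bases of its first exon. The GATA3 canonical start had no loop of either set, as had 18.9% of coding promoters (3809), and its own 5 kb bin, with the anchor chr10:8097001-8098000, was an anchor of no loop at all. The tables list called loops only, so this absence sets no upper limit on contact at GATA3. Among 16 genes of GATA factors and their partners, 11 had loops, up to 72 at TRPS1.

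**Figure D1:**
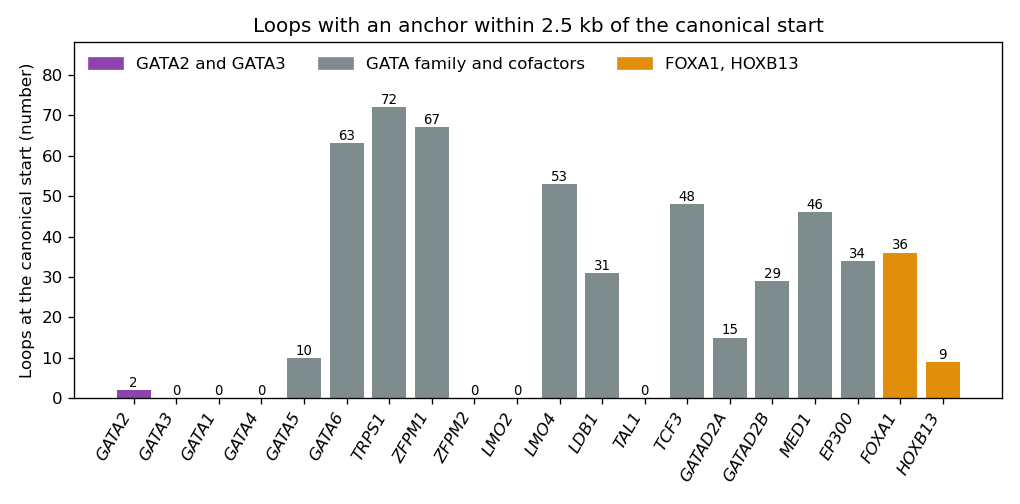
Number of different loops (vertical axis) with an anchor within 2.5 kb of the canonical start of each gene (horizontal axis), with GATA2 and GATA3 in purple, GATA family members and cofactors in grey and FOXA1 and HOXB13 in orange. GATA2 had 2 loops and GATA3 0, as against 63 at GATA6 and 72 at TRPS1.

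One of the 2 GATA2 loops held nearly all of the contact. It joined the canonical start to the anchor chr3:128207001-128208000, 5 kb away inside the gene, which covers the internal start and the start window of the antisense transcript GATA2-AS1. The loop held 99.3% of the H3K27ac read pairs of the promoter at 0 m (interval 97.4 to 99.9%) and 100% of its H3K4me3 read pairs (98.8 to 100%). The other loop ran 495 kb into an intron of MGLL, the gene of monoacylglycerol lipase, and had 0 to 5 read pairs in any table. By mean contact the 5 kb loop stood 42nd for H3K27ac and 33rd for H3K4me3 among 28409 loops of the same 5 kb length.

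H3K27ac contact of the 5 kb loop was 81.4 at 0 m (interval 72.1 to 91.6), 129 at 30 m (119 to 138), 99.4 at 4 h (90.5 to 109), 193 at 16 h (181 to 206) and 171 at 72 h (158 to 185). It was lowest in vehicle and highest at 16 h, in the order 0 m, 4 h, 30 m, 72 h and 16 h. In that order 0 m and 4 h, and 72 h and 16 h, had overlapping intervals, and the other neighbours did not. The read pairs behind these values were 277, 715, 465, 910 and 650 in order of time.

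H3K4me3 contact of the same loop was 89.4 at 0 m (79.8 to 99.8), 116 at 30 m (104 to 129), 112 at 4 h (106 to 118), 128 at 16 h (118 to 138) and 89.3 at 72 h (79.9 to 99.6). Under the authors' scaling, the levels at 30 m, 4 h and 16 h lay above those at 0 m and 72 h, which did not differ beyond their intervals. Within the first 3, neighbours in order (4 h, 30 m, 16 h) had overlapping intervals. As a share of the library this order did not hold. At 4 h the loop had 132 of every 1000000 read pairs (125 to 139), which overlapped both 0 m (123, 110.2 to 138) and 72 h (135, 120.4 to 150.1). The 4 h change with equal totals was 0.10 (-0.08 to 0.28). The shares at 30 m (158, 142 to 176) and 16 h (161, 149 to 174) lay above that at 0 m but also overlapped that at 72 h. Since it is not stated whether the marks were scaled together, contact was not compared between H3K27ac and H3K4me3.

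**Figure D2:**
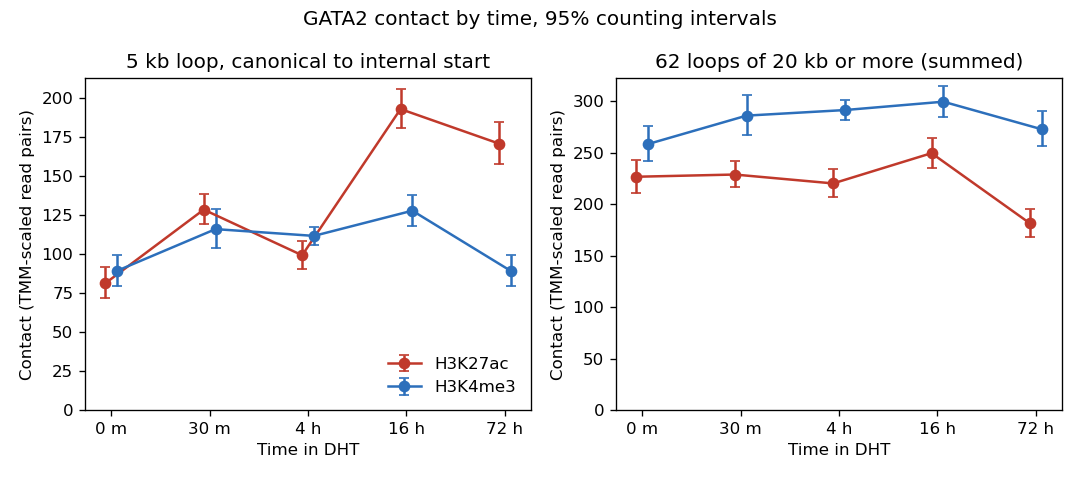
Contact in TMM-scaled read pairs (vertical axes, from 0) by time in DHT (horizontal axes) for the 5 kb loop between the GATA2 starts (left) and for the sum of the 62 GATA2 loops of 20 kb or more (right), H3K27ac in red and H3K4me3 in blue, each point 1 deposited value with its exact 95% counting interval. The H3K27ac contact of the short loop was 193 at 16 h and 171 at 72 h as against 81.4 at 0 m, whereas that of the long loops was 181 at 72 h as against 227 at 0 m.

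Summed over both canonical loops, H3K27ac contact changed by 0.66 (log2, interval 0.46 to 0.86) at 30 m, 0.28 (0.07 to 0.50) at 4 h, 1.24 (1.04 to 1.44) at 16 h and 1.07 (0.86 to 1.27) at 72 h against 0 m. H3K4me3 contact changed by 0.38 (0.15 to 0.60), 0.33 (0.15 to 0.51), 0.52 (0.33 to 0.72) and -0.00 (-0.23 to 0.23). A promoter was called higher or lower where it changed by at least 1.5-fold with an interval that left out no change, among those with at least 10 read pairs in the tables compared. GATA2 was called higher for H3K27ac at 30 m, 16 h and 72 h, and was called in neither direction at 4 h or at any H3K4me3 time point. With libraries scaled to equal totals, the H3K27ac change was 0.57 at 30 m, which fell short of 1.5-fold, and the calls at 16 h (0.99) and 72 h (0.89) held, where 6.32% and 7.53% of all coding promoters were called higher. With every annotated start of the gene, a far larger set of loops, the change was 0.27 at 30 m and 0.29 at 72 h and was past 1.5-fold at 16 h alone (0.59), where with equal totals as well it was 0.34 and fell short. Such a call was common for H3K27ac at 30 m, 16 h and 72 h and for H3K4me3 at 4 h, and uncommon elsewhere. Of all coding promoters tested, 15.3%, 2.77%, 15.1% and 14.5% were called higher for H3K27ac at the 4 time points in order. For H3K4me3 the share was 0.856%, 12%, 3.22% and 1.47%. The share called lower was 2.84%, 0.899%, 7.29% and 5.17% for H3K27ac and 1.27%, 2.23%, 0.458% and 4.88% for H3K4me3. The balance depended on the scaling: higher calls made up 84.3%, 75.5%, 67.5% and 73.8% of all H3K27ac promoter calls and, with equal totals, 70.3%, 57.0%, 28.3% and 44.6%. For H3K4me3 they made up 40.2%, 84.3%, 87.5% and 23.1% and, with equal totals, 33.9%, 44.1%, 51.4% and 61.8%.

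Loops between adjacent bins moved as a class, and for both marks the change at GATA2 lay inside the range of that class. For H3K4me3 at 72 h it lay near the upper end. All 28409 loops of 5 kb together changed by 0.29, 0.26, 0.69 and 0.50 for H3K27ac and by 0.09, 0.33, 0.26 and -0.27 for H3K4me3. Among 5 kb loops with at least 200 read pairs in the tables compared, the share with a higher change than the GATA2 loop was 37.03%, 36.5%, 38.5% and 34.5% for H3K27ac and 17.8%, 59.7% and 14.4% for H3K4me3 at 30 m, 4 h and 16 h. At 72 h the H3K4me3 change of the GATA2 loop was -0.00 where the median of 1395 such loops was -0.44, and 5.38% of them had a higher change. This comparison with the class was chosen after the data were seen.

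GATA2 was a hub at its internal anchor, not at its canonical start. With every annotated start of the gene allowed, GATA2 had 64 loops, 15 of the H3K27ac set alone, 24 of the H3K4me3 set alone and 25 of both. Of these, 63 met at chr3:128207001-128208000. Of the 210061 anchors, 0.495% had as many loops or more, and the median anchor had 2. Of coding promoters, counted at the canonical start, 6.12% (1233) had as many loops as the 64 or more. Because the start window of GATA2-AS1 covers this anchor (63 loops), contacts of the internal GATA2 start and of the antisense transcript cannot be told apart. A second 5 kb loop within the gene joined the hub to chr3:128202001-128203000, which holds an exon of the GATA2 body, with H3K27ac contact of 89.9, 122, 96.4, 156 and 134 and H3K4me3 contact of 129, 166, 145, 185 and 102 in order of time.

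The other 62 loops were 20 kb or longer, and 51 of them ran downstream towards EEFSEC, RUVBL1 and SEC61A1, as against 11 upstream towards RPN1. At 0 m the downstream loops held 91.2% of the H3K27ac and 91.4% of the H3K4me3 read pairs of the 62. The far anchor of 10 loops overlapped a coding promoter. Those promoters included EEFSEC, RUVBL1 (a chromatin-remodelling ATPase), SEC61A1 (the protein translocation channel of the endoplasmic reticulum), MCM2 (a replication helicase subunit) and CNBP (a nucleic-acid-binding zinc finger protein). The far anchors of the other 52 loops, 51 different ones, met no coding promoter. Mean contact of the 62 loops ranged from 0.0360 to 31.9 with a median of 1.48 for H3K27ac, and from 0.141 to 27.1 with a median of 2.57 for H3K4me3.

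**Figure D3:**
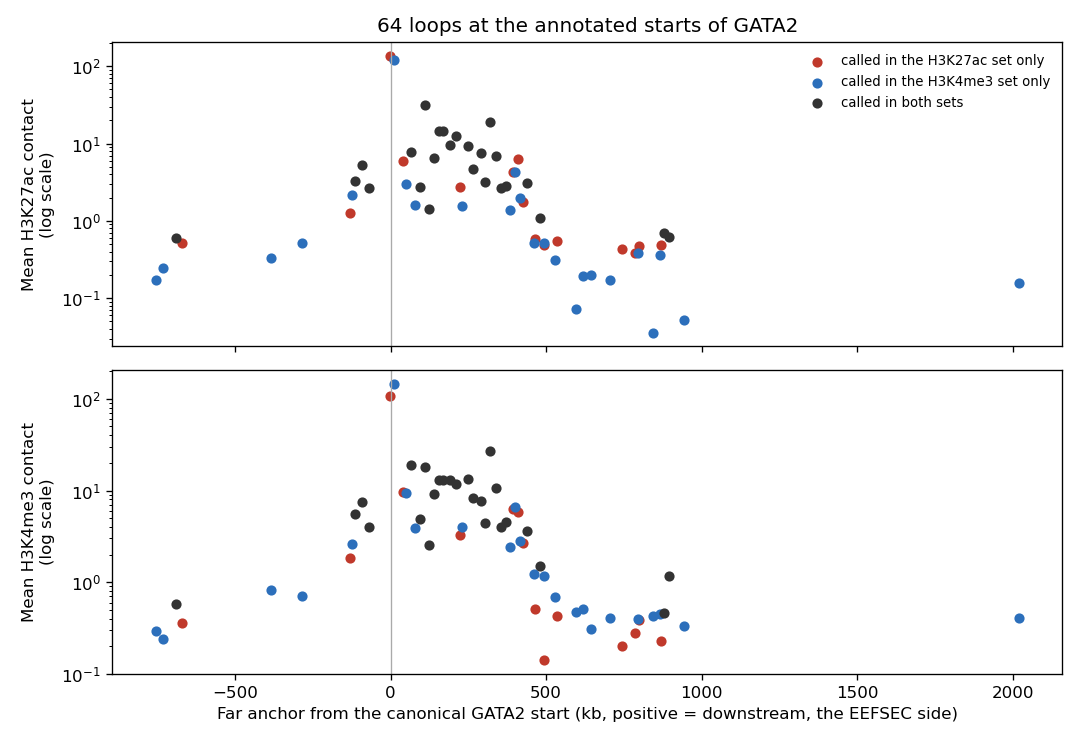
Mean contact over the 5 time points (vertical axes, log scale) of the 64 loops at the annotated GATA2 starts against the position of the far anchor relative to the canonical start (horizontal axis, kb, downstream positive), H3K27ac above and H3K4me3 below, with colours for the set in which a loop was called. The 2 short loops within the gene lie above 100, and the long loops of highest contact, up to 31.9 for H3K27ac and 27.1 for H3K4me3, lie downstream within EEFSEC.

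The long loops of highest contact ended in EEFSEC. All 5 long loops with a mean H3K27ac contact of 10 or more, and 7 of the 9 for H3K4me3, ended in its introns. Of the other two for H3K4me3, one ended at the start of EEFSEC and one between EEFSEC and GATA2. The strongest for H3K27ac reached chr3:128102001-128103000, 105 kb from the hub, with contact of 32.3, 29.1, 32.3, 41.0 and 24.7 in order of time. The strongest for H3K4me3 reached chr3:127892001-127893000, 315 kb away, with contact of 21.7, 26.985, 28.4, 34.0 and 24.5. Both are the far anchors whose sequences are shown above.

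The next in H3K27ac contact, after that 315 kb loop with a mean of 18.9, ended at chr3:128042001-128043000 (mean 14.6), chr3:128057001-128058000 (14.6) and chr3:128002001-128003000 (12.6). For H3K4me3 the next were chr3:128147001-128148000 (19.1), between EEFSEC and GATA2, then the 105 kb loop (17.9), chr3:127962001-127963000 (13.4) and chr3:128057001-128058000 (13.1). All of these loops but that to chr3:128147001-128148000 ended in EEFSEC introns.

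Across the 63 different far anchors, those of the short loops within GATA2 included, AGATAA was found in 23 (36.5%), as against 50.1% of all 210061 anchors. The androgen half-site was found in 25 (39.7% as against 55.6%), TGTTTAC in 5 (7.94% as against 14.5%) and the full androgen response element in 0 (0% as against 0.0190%). The CTCF core was found in 13 (20.6% as against 10.0%), among them the far anchors of both short loops within GATA2. The far anchors had a median of 50.4% G and C where all anchors had 41.9%, and the part of base composition in these shares was not tested. An anchor is the middle 1 kb of a 5 kb bin, so that letters elsewhere in the bin were not read.

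The long loops did not follow the short loop in H3K27ac. Their summed H3K27ac contact was 227 at 0 m (interval 211 to 243), 229 at 30 m (216 to 242), 220.1 at 4 h (207 to 234), 249.5 at 16 h (235 to 264) and 181 at 72 h (168 to 195). The 72 h value was the lowest, and its interval overlapped none of the others. Against 0 m the changes were 0.01 (-0.12 to 0.14), -0.04 (-0.18 to 0.09), 0.14 (0.01 to 0.27) and -0.32 (-0.47 to -0.17), and all loops of at least 20 kb changed by -0.04, -0.06, -0.03 and -0.03. When libraries were instead scaled to equal totals, the changes were -0.08, -0.11, -0.11 (-0.24 to 0.02) and -0.49 (-0.64 to -0.34), where all loops of at least 20 kb changed by -0.14, -0.13, -0.27 and -0.20. Their H3K4me3 contact was 258, 286, 291, 299 and 273 in order of time, and it changed by 0.15 (0.01 to 0.28), 0.17 (0.07 to 0.28), 0.21 (0.09 to 0.33) and 0.08 (-0.05 to 0.21), where all loops of at least 20 kb changed by 0.01, 0.20, 0.10 and -0.05. With equal totals the H3K4me3 changes were 0.12 (-0.01 to 0.26), -0.05 (-0.16 to 0.06), 0.08 (-0.04 to 0.20) and 0.20 (0.07 to 0.34), so that which time points lay beyond counting error depended on the scaling.

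Set against each other in the same libraries, where the scaling drops out, the 5 kb loop changed more than the long loops by 0.65 (log2, interval 0.40 to 0.89) at 30 m, 0.33 (0.07 to 0.59) at 4 h, 1.11 (0.87 to 1.35) at 16 h and 1.39 (1.14 to 1.65) at 72 h for H3K27ac. For H3K4me3 the difference was 0.23 (-0.03 to 0.50), 0.15 (-0.06 to 0.36), 0.30 (0.07 to 0.54) and -0.08 (-0.34 to 0.19). The difference lay beyond counting error at every H3K27ac time point and, for H3K4me3, at 16 h alone. The direction for H3K27ac is shared with the class, since all 5 kb loops together also changed more than all loops of at least 20 kb.

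The long loops were also summed by the place of the far anchor. The 4 loops that ended between EEFSEC and GATA2 had summed H3K27ac contact of 20.9, 27.7, 19.9, 12.7 and 9.74 in order of time, so that it was lowest at 72 h. Their change was -0.71 (-1.23 to -0.20) at 16 h and -1.10 (-1.71 to -0.51) at 72 h, and their H3K4me3 change was -0.15 (-0.51 to 0.20) at 30 m, -0.57 (-0.84 to -0.29) at 4 h, -0.06 (-0.36 to 0.24) at 16 h and 0.20 (-0.12 to 0.51) at 72 h. With equal totals the H3K4me3 change was -0.79 at 4 h and 0.32 (0.01 to 0.64) at 72 h. The 11 upstream loops changed by -0.56 (-1.07 to -0.04) and -0.63 (-1.19 to -0.08) for H3K27ac at 16 h and 72 h. With equal totals the H3K27ac changes at 16 h and 72 h were -0.96 and -1.27 for the loops between EEFSEC and GATA2 and -0.80 and -0.80 for the upstream loops.

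The 16 loops to EEFSEC changed by 0.28 (0.12 to 0.44) at 16 h and -0.28 (-0.47 to -0.10) at 72 h for H3K27ac, and the 31 loops beyond EEFSEC by 0.21 (-0.12 to 0.54) and -0.02 (-0.38 to 0.34). With equal totals the 16 h change of the EEFSEC loops was 0.03 and that of the loops beyond EEFSEC turned to -0.04. These groups of far anchors were drawn after the data were seen.

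**Figure D4:**
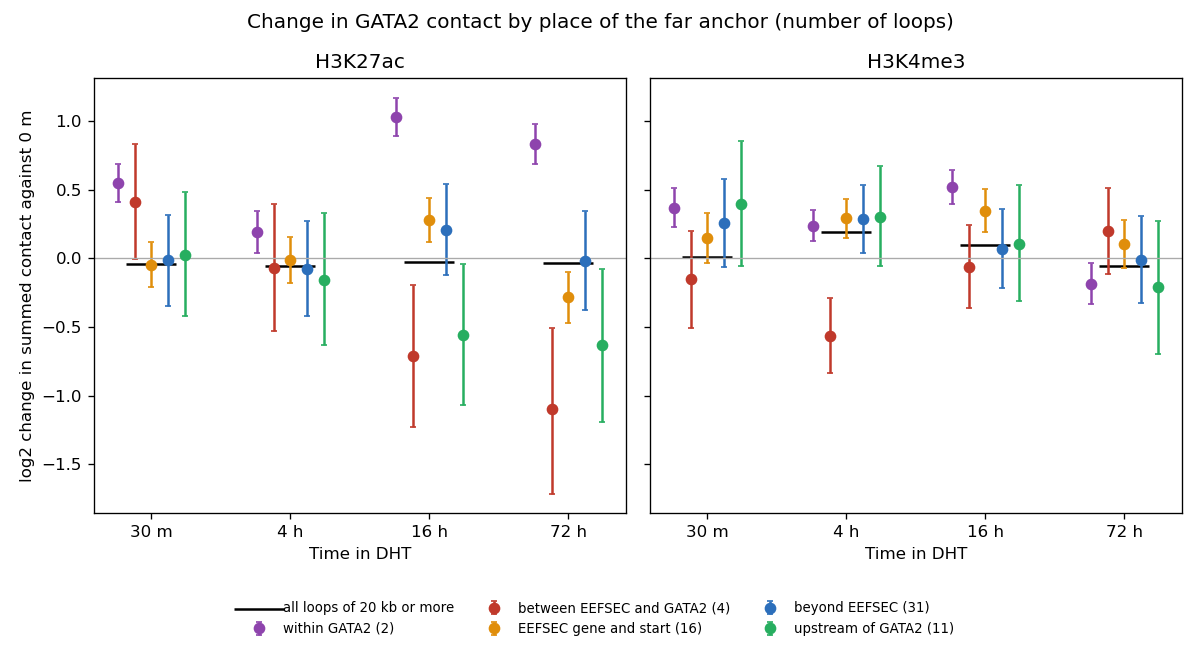
Log2 change in summed contact against 0 m (vertical axis) by time in DHT (horizontal axis) for 5 groups of GATA2 loops set by the place of the far anchor, H3K27ac left and H3K4me3 right, with exact 95% counting intervals and, as black bars, the change of all loops of 20 kb or more. For H3K27ac at 72 h the loops within GATA2 changed by 0.83 and those between EEFSEC and GATA2 by -1.10.

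Of the 64 GATA2 loops, 33 to 48 had the 10 read pairs needed for a call in a comparison. For H3K27ac 1, 0, 4 and 2 were called higher at 30 m, 4 h, 16 h and 72 h and 0, 1, 3 and 4 lower, of 36, 36, 35 and 33 tested. Over all loops tested, 6.09%, 3.62%, 10.8% and 9.35% were called higher and 5.09%, 2.04%, 4.48% and 4.45% lower. The 4 lower at 72 h made up 12.1% of those tested and the 4 higher at 16 h 11.4%. For H3K4me3 2, 5, 4 and 2 were called higher and 0, 2, 0 and 0 lower, of 38, 48, 39 and 37 tested. Over all loops tested, 2.12%, 5.17%, 3.27% and 1.33% were called higher and 1.92%, 2.06%, 1.47% and 4.25% lower. With equal totals, 0, 0, 1 and 2 GATA2 loops were called higher and 1, 1, 5 and 7 lower for H3K27ac, and 2, 0, 0 and 3 higher and 0, 4, 0 and 0 lower for H3K4me3. Of all loops tested, 4.86%, 2.73%, 6.64% and 6.45% were then called higher and 5.6%, 2.5%, 8.25% and 6.95% lower for H3K27ac, and 2%, 2.39%, 1.89% and 1.99% higher and 2.23%, 4.05%, 2.61% and 2.72% lower for H3K4me3. Over all loops, higher calls made up 54.5%, 64.001%, 70.7% and 67.8% of the H3K27ac calls and, with equal totals, 46.5%, 52.2%, 44.6% and 48.1%. For H3K4me3 they made up 52.5%, 71.5%, 68.9% and 23.8% and, with equal totals, 47.3%, 37.1%, 42.1% and 42.2%.

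The 9 loops called in some H3K27ac comparison included both short loops, with changes of 1.25 (1.05 to 1.45) and 0.80 (0.60 to 0.99) at 16 h. The 315 kb loop to chr3:127892001-127893000 was called higher at 16 h (0.76, 0.25 to 1.29) and 72 h (0.81, 0.28 to 1.35) and, for H3K4me3, at 16 h (0.65, 0.25 to 1.05). Its H3K27ac contact was 13.5, 19.3, 15.2, 22.9 and 23.7 in order of time, so that its highest values were the last. With equal totals the 72 h call held (0.64) and both 16 h calls of this loop were lost, as was that of the second 5 kb loop within the gene (0.55). In the opposite direction stood the 260 kb loop to another EEFSEC intron, chr3:127947001-127948000, which was called lower for H3K27ac at 4 h (-1.02, -1.94 to -0.13), 16 h (-0.88, -1.77 to -0.02) and 72 h (-2.38, -3.94 to -1.08). Its calls held with equal totals (-1.09, -1.13 and -2.55). The other called loops ended in EEFSEC, RUVBL1 and MCM2 introns, between EEFSEC and GATA2 and upstream of GATA2, with intervals that in several cases began or ended within 0.1 of no change.

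GATA3 had almost no contact in these tables even when its rule was widened. With every annotated start allowed it had 2 loops, both of the H3K4me3 set alone. One ran 225 kb from the most upstream GATA3 start to the promoter of TAF3, a subunit of the general transcription factor TFIID, and had 2, 1, 0, 0 and 0 H3K27ac and 8, 6, 14, 1 and 6 H3K4me3 read pairs in order of time. The other was a 5 kb loop between bins upstream of the canonical start, with 1, 4, 10, 5 and 4 H3K27ac and 1, 4, 15, 7 and 4 H3K4me3 read pairs. Their summed contact was 0.882 to 2.14 for H3K27ac and 1.55 to 3.42 for H3K4me3, as against 398 to 599 and 464 to 612 for the 64 loops of GATA2.

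The bin next to that of the canonical start, whose anchor lies in the start window of GATA3-AS1, had 1 further loop, of 265 kb, to the shared promoter of KIN and ATP5F1C, with 0 to 1 H3K27ac and 1 to 6 H3K4me3 read pairs. The surroundings were not empty: TAF3 had 123 loops, KIN and ATP5F1C 90, and ITIH5 had 0. Within 1 Mb on either side of the start there were 234 loops for GATA3 and 890 for GATA2. The 5 kb loop was called higher for H3K27ac at 4 h (2.86, 0.05 to 8.30), from 1 read pair at 0 m and 10 at 4 h, where 3.62% of all loops tested were called higher. With equal totals its interval held no change (-0.02 to 8.23) and the call was lost. Summed over both loops, a change at GATA3 was not detectable at this depth. With every start allowed, that summed change in order of time was 0.03, 1.28, 0.27 and 0.26 for H3K27ac and 0.43, -0.14, -0.71 and 0.11 for H3K4me3, each with an interval more than 2 log2 units wide that held no change. By the same starts the change of GATA2 minus that of GATA3 was -1.21 (-3.72 to 0.75) for H3K27ac at 4 h and 1.08 (-0.47 to 2.65) for H3K4me3 at 16 h, and no interval of the 8 differences left out 0.

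As a share of a library, the canonical GATA2 loops held 113 of every 1000000 read pairs at 0 m (interval 99.9 to 127), 167 at 30 m, 131 at 4 h, 224 at 16 h (209 to 239) and 209 at 72 h for H3K27ac. For H3K4me3 they held 123, 158, 133, 161 and 135 of every 1000000. From 2 loops GATA2 thus held a smaller H3K27ac share at each time point than FOXA1 and HOXB13. FOXA1, a forkhead pioneer factor of prostate epithelium, had 240.1 to 461 from 36 loops. HOXB13, a homeobox factor of the prostate, had 332 to 416 from 9 loops. With every annotated start, the 64 GATA2 loops held 545 to 694 of every 1000000 H3K27ac read pairs. No such count was made for FOXA1 and HOXB13, so the order holds for canonical starts alone. For H3K4me3, FOXA1 held 54.4 to 119, less than the canonical GATA2 loops at each time point. HOXB13 held 129 to 199, more than the canonical GATA2 loops except at 72 h (129 as against 135). GATA3 listed none.

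Of the 16 genes of GATA factors, cofactors and coactivators, 11 had loops and 11 were tested in every comparison. Among GATA-type zinc finger genes, GATA1 and GATA4 had none, GATA5 had 10 loops of low counts, GATA6 had 63 and TRPS1, a GATA-type repressor, 72. GATA6, a factor of endoderm, held 32.2 to 54.0 of every 1000000 read pairs for H3K27ac and 79.2 to 117 for H3K4me3, and TRPS1 34.2 to 70.0 and 52.2 to 77.8. GATA6 was called higher for H3K27ac at 16 h (0.76, 0.38 to 1.15) and 72 h (0.88, 0.49 to 1.27), as GATA2 was, and for H3K4me3 at 4 h (0.78, 0.56 to 0.998). TRPS1 was called higher for H3K27ac at 72 h (0.79, 0.45 to 1.13) and for H3K4me3 at 4 h (0.80, 0.54 to 1.08).

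Among cofactors, ZFPM2, LMO2 and TAL1 had no loop, ZFPM1 (a FOG protein that binds GATA factors) had 67, LMO4 53, LDB1 31 and TCF3 48. Over the tables ZFPM1 held 81.6 to 137 of every 1000000 read pairs for H3K27ac, LMO4 40.6 to 65.2, and LDB1, a bridge between looped elements in blood cells, 82.9 to 125. TCF3, a basic helix-loop-helix partner, was called higher for H3K27ac at 30 m (1.12, 0.92 to 1.33), 16 h (0.95, 0.74 to 1.17) and 72 h (0.82, 0.60 to 1.04) and was called lower for H3K4me3 at 72 h (-0.67, -0.93 to -0.42). Among chromatin and coactivator genes, GATAD2A had 15 loops, GATAD2B 29, MED1 46 and EP300 34. GATAD2A, of the NuRD complex, was called higher for H3K27ac at 30 m (0.63, 0.32 to 0.96) and 72 h (0.87, 0.54 to 1.20), and EP300, the acetyltransferase p300, lower for H3K4me3 at 72 h (-0.77, -1.07 to -0.48).

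In all, 2, 0, 2 and 4 of the 11 were called higher for H3K27ac and 0, 2, 0 and 0 for H3K4me3 in order of time, and 2 were called lower, both for H3K4me3 at 72 h. Of all coding promoters tested, 15.3%, 2.77%, 15.1% and 14.5% were called higher for H3K27ac, 12% were called higher for H3K4me3 at 4 h and 4.88% lower at 72 h, so that 2 of 11 at 30 m and at 16 h was near the background. With equal totals 1 (TCF3), 0, 1 (TCF3) and 4 (GATA6, TRPS1, TCF3 and GATAD2A) were called higher for H3K27ac and LDB1 lower at 72 h, whereas for H3K4me3 EP300 alone was called, lower at 72 h. Under that scaling 9.93%, 1.78%, 6.32% and 7.53% of all coding promoters were called higher and 4.2%, 1.34%, 16.1% and 9.33% lower for H3K27ac. For H3K4me3 the shares were 0.73%, 4.53%, 1.33% and 2.78% higher and 1.43%, 5.73%, 1.26% and 1.72% lower. The median change of the list was 0.35, -0.03, 0.50 and 0.38 for H3K27ac, where that of all tested coding promoters was 0.24, 0.05, 0.11 and 0.14. For H3K4me3 it was 0.05, 0.43, 0.11 and -0.23, where that of all was 0.03, 0.22, 0.12 and -0.14.

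The time course of the canonical GATA2 loops was most like that of CDH1 (E-cadherin), ACTN4 (an actin cross-linker) and AP1G1 (a subunit of a clathrin adaptor). Likeness was the root mean square difference in log2 contact, centred within a mark, over the 10 tables, which was 0.0946, 0.114 and 0.124 for these and 0.300 in the median of the 2084 coding promoters with at least 200 read pairs in every table. GATA3 had no loop to compare.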

How the data were processed

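HiChIP of H3K27ac and H3K4me3 in LNCaP cells was trimmed, aligned to hg19 and filtered by the authors with Trim Galore 0.5.0, HiC-Pro 3.1.0 and Bowtie2. Loops were called in 5 kb bins on merged time points with FitHiChIP. The deposited values are a contact signal per loop, to which the authors had applied TMM scaling among time points. Whether a H3K27ac value draws on both replicates is not given in the sources used here. All values were whole multiples of 1 step per table (100%, tolerance 1e-06 of a step), so read pairs were recovered by division.

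Loops listed in both sets were counted once. Starts came from Gencode release 44 lifted to GRCh37. Ratios and shares were given exact 95% intervals (Clopper-Pearson, conditional). These intervals cover counting error only, since each loop has a single value per mark and time point. The paper reports that HiC-Pro took out duplicate reads. Calls needed 1.5-fold, 10 read pairs and an interval without 0. Scripts were tested on simulated data. Software was scipy 1.17.1, pandas 2.3.3, numpy 2.4.6 and Python 3.11.15.

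The members and gene lists were chosen with earlier results of these data known. Loops named are the 5 of highest mean contact per mark and loops called in a comparison (by range where over 5). Family genes are named with values where they had at least 50 read pairs in a table, and the 3 most alike promoters are named. Alternatives varied scaling, loop length, loop set, starts, the strongest loop and the anchor overlap. RefSeq promoter entries, which are on another build, were not used.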

Additional observations from a re-analysis of the deposited data

How the results depend on the processing

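Of 49 values under alternatives for the 12 GATA2 results, 23 stayed within the counting interval of the value reported. Another 20 moved beyond it, and 6 moved beyond it and turned in direction. The 23 included the H3K4me3 change at 72 h, which turned from -0.00 to 0.13 with equal totals. It was 0.08 with every start and loops of at least 20 kb. Every annotated start, and the 5 kb bin in place of the 1 kb anchor, both gave the 64 loops in place of 2, and the H3K27ac log2 change was then 0.27, 0.064, 0.59 and 0.29 at 30 m, 4 h, 16 h and 72 h. With every start and loops of at least 20 kb, an alternative chosen after seeing the data, it was 0.014, -0.042, 0.14 and -0.32, and the H3K4me3 change was 0.15 at 30 m and 0.21 at 16 h. Without the strongest loop, or with short loops (under 20 kb) left out, only the longer canonical loop was left, with 2 H3K27ac read pairs at 0 m, and the H3K27ac change was 0.61 (-2.00 to 4.01) at 30 m, -0.46 (-4.25 to 3.33) at 4 h and -0.16 (-3.95 to 3.63) at 72 h, with 2 read pairs at both of these later times. Read pairs scaled to equal totals gave 0.99 for H3K27ac at 16 h and 0.10 for H3K4me3 at 4 h, and took the H3K27ac change at 30 m (0.57) below 1.5-fold. The share of the strongest loop at 0 m fell to 22.6% (H3K27ac) and 26.998% (H3K4me3) with every start and was 100% for H3K27ac without short loops. The read pairs of every 1000000 at 0 m were 547 and 658 with every start and 1.41 for H3K27ac without short loops. The change in loops counted sets these differences, except for the scaling.

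GATA3 had no loop at its canonical start, so that it and its difference from GATA2 had no value to vary, and neither of the 2 canonical GATA2 loops belonged to the H3K4me3 set. No paired analysis was possible because a table gives each loop a single value and carries no replicate number, and for the same reason no replicate was left out. Depth limits single long loops, since the median over all loops was 1 to 7 read pairs, depending on the table.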
